A study of Mus musculus with 20 samples.

Results

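Whole lung of mice labelled Alox15 knockout was compared with whole lung of wild-type mice after daily house dust mite extract, gene by gene. The comparison takes 10 of the 20 libraries of the series: 5 biological replicates labelled knockout and given dust mite (written KO_HDM 1 to 5) and 5 labelled wild type and given dust mite (WT_HDM 1 to 5). All mice were female and of strain C57Bl6, and the extract was placed in the nose each day for 14 days. The other 10 libraries came from saline-treated mice of the same genotype labels, 5 each (WT_saline and KO_saline), and are used here for the same genotype comparison without allergen. How the knockout allele was made, the age of the mice and whether the groups were littermates are not given in the sources used here. Poly(A) RNA was sequenced, and the table lists 24054 genes, of which 16193 had enough counts to be tested.

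House dust mite is an inhaled allergen. Repeated exposure drives a type 2 response in mouse lung, in which the cytokines Il4, Il5 and Il13, made by T helper and innate lymphoid cells, recruit eosinophils through eotaxins, induce mucus in airway epithelium and turn macrophages towards an alternatively activated state. Interferon gamma acts against this state: it induces guanylate-binding proteins, immunity-related GTPases, the chemokines Cxcl9 and Cxcl10 and the class I antigen presentation machinery. Alox15 encodes 12/15-lipoxygenase, which oxidises arachidonic and linoleic acid in alternatively activated macrophages and eosinophils, and its products feed into lipid mediators such as the lipoxins.

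Library totals ran from 12573113 to 20662632 expected counts in WT_HDM and from 17840138 to 21082770 in KO_HDM. Levels are given as CPM, the count of a gene scaled to a common library size, and differences as log2 fold changes of KO_HDM over WT_HDM with their standard error. A gene is called when its adjusted p in edgeR's quasi-likelihood test is under 0.05. Sftpc, the surfactant protein that marks type 2 alveolar cells, lay between 3973 and 9971 CPM in the 10 libraries. Several libraries also held transcripts of other tissues. Adipoq of fat was at 124.5 CPM in WT_HDM 2, at 169 in WT_HDM 4 and at 167 in KO_HDM 5, and at most 7.42 in the other 7. The heart myosin Myh6 was at 2409 CPM in WT_HDM 4 and 1783 in KO_HDM 5, and the skeletal muscle kinase Ckm at 414 CPM in WT_HDM 2. Rn45s, a ribosomal RNA precursor, accounted for 2.72% to 6.08% of counts in WT_HDM and 1.82% to 2.98% in KO_HDM. A fit with that share as a covariate called 878 genes, 536 higher and 342 lower, beside 1080 in the main fit. Of the genes named by the rules given below, 74 kept their call in it, 33 lost it and 1 changed sign. Its values are given beside many of these calls. Liver and red blood cell genes were also higher in the KO_HDM libraries and are described with the other tissues.

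Alox15 itself went against the genotype label. Its level was 12.9, 19.8, 29.8, 22.7 and 7.92 CPM in WT_HDM libraries 1 to 5 and 39.4, 43.5, 42.2, 45.5 and 35.0 CPM in KO_HDM libraries 1 to 5. Every library labelled knockout was above every library labelled wild type. The difference in log2 CPM was 1.27 (two-sided exact permutation test, p = 0.00794, the lowest possible with 5 and 5 libraries). The permutation p is for 1 gene and was not adjusted. The edgeR fit gave 1.15 ± 0.41, with an unadjusted p of 0.0124, an adjusted p of 0.107 and no call. With limma voom the difference was 1.32 (adjusted p = 0.00957). Under saline the measured gap was wider: 0.825 to 11.1 CPM in WT_saline against 38.4 to 44.7 in KO_saline (log2 3.15, edgeR adjusted p = 0.000583). The genotype difference under dust mite minus that under saline was -2.00 ± 0.59 in edgeR and was not called (adjusted p = 0.106). Gene counts do not show whether a transcript is functional, and the deleted part of the gene is not given in the sources used here. From gene counts an exchange of the labels and a transcript left by the allele cannot be told apart, and exchanged labels would turn every direction given here. In what follows KO_HDM means the libraries labelled knockout. Of the 10 genes on either side of Alox15 on chromosome 11, Mgl2 (-0.91) and Arrb2 (0.53) were called, and the other 18 were not.

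**Figure D1:**
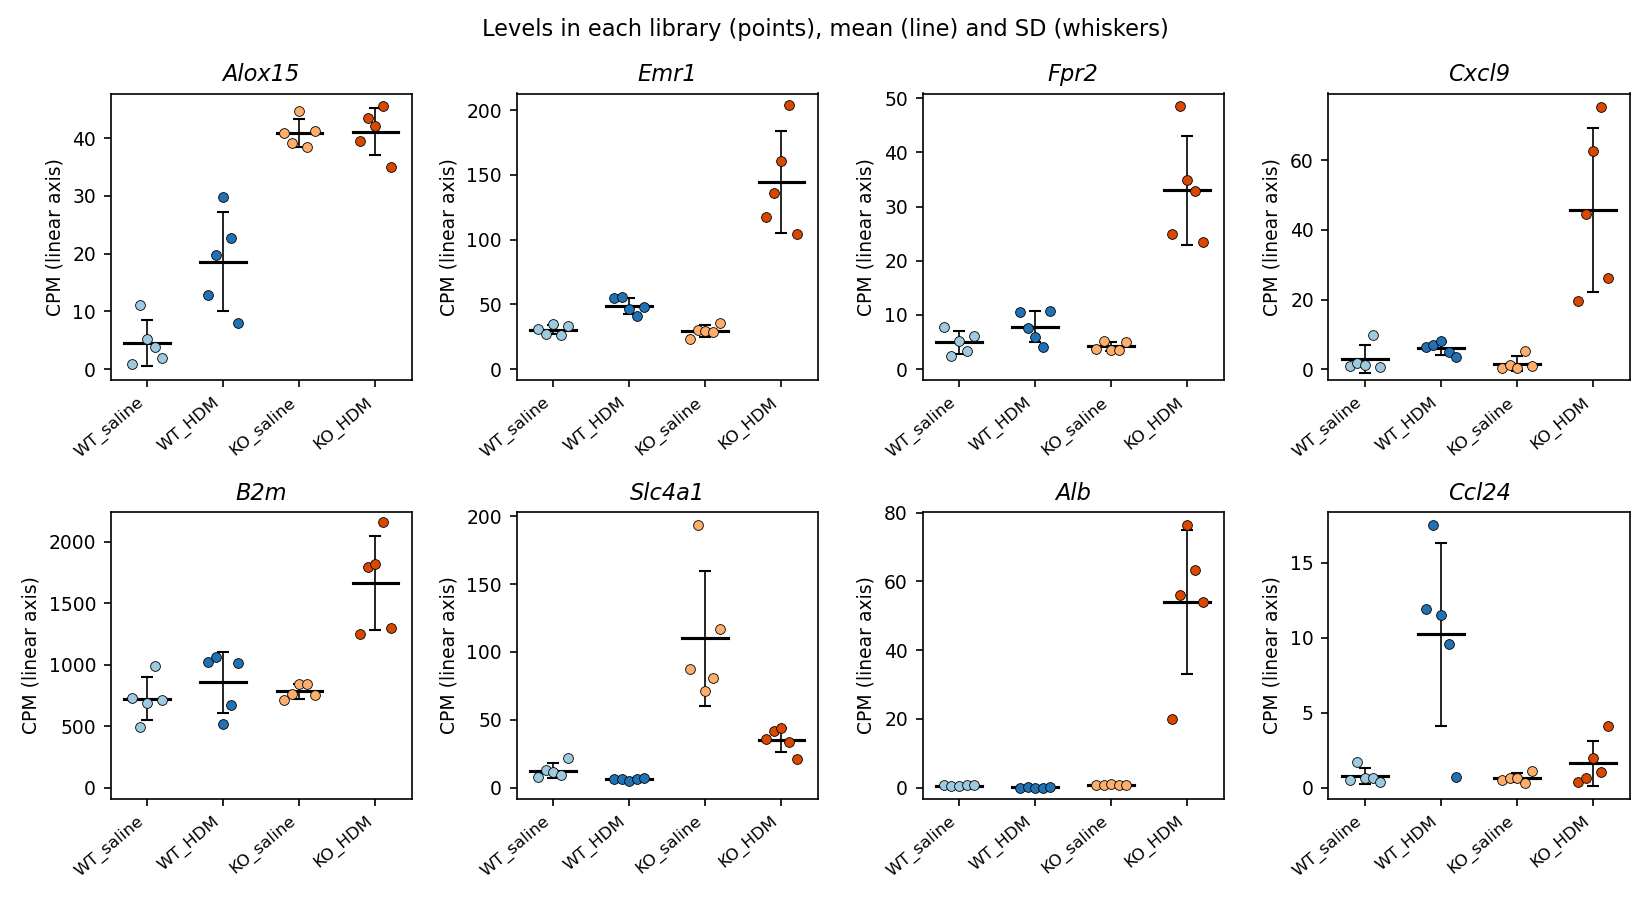
CPM on linear axes of 8 genes in the 5 libraries of each group, with the mean as a line and the SD as whiskers. Alox15 lies higher in the libraries labelled knockout under both treatments, Emr1, Fpr2, Cxcl9, B2m and Alb stand out in KO_HDM, Slc4a1 is higher under both knockout labels, and Ccl24 is high in 4 of the 5 WT_HDM libraries.

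Across the table edgeR called 1080 genes, or 6.67% of those tested: 775 higher (4.79%) and 305 lower (1.88%) in KO_HDM. Of these, 252 differed at least 2-fold, 168 higher and 84 lower. The 5 and 5 libraries did not overlap for 7.01% of tested genes, and for 716 of the 1080 called. The 15 largest rises and 15 largest falls named here were picked among called genes without overlap, so that separation was set by the rule. The median log2 fold change of all tested genes was -0.01. The count rests partly on single libraries: it was 576 without KO_HDM 4 and 663 without KO_HDM 3, and the 775 higher calls became 420 without KO_HDM 4, 487 without KO_HDM 3 and 516 without WT_HDM 4. Lower calls numbered 171 without KO_HDM 2, 176 without KO_HDM 3, 156 without KO_HDM 4 and 459 without WT_saline 1, which enters through the shared estimate of spread. Nothing in the labels says that the biological replicates were housed or processed apart, so p-values measure the spread between these samples.

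**Figure D2:**
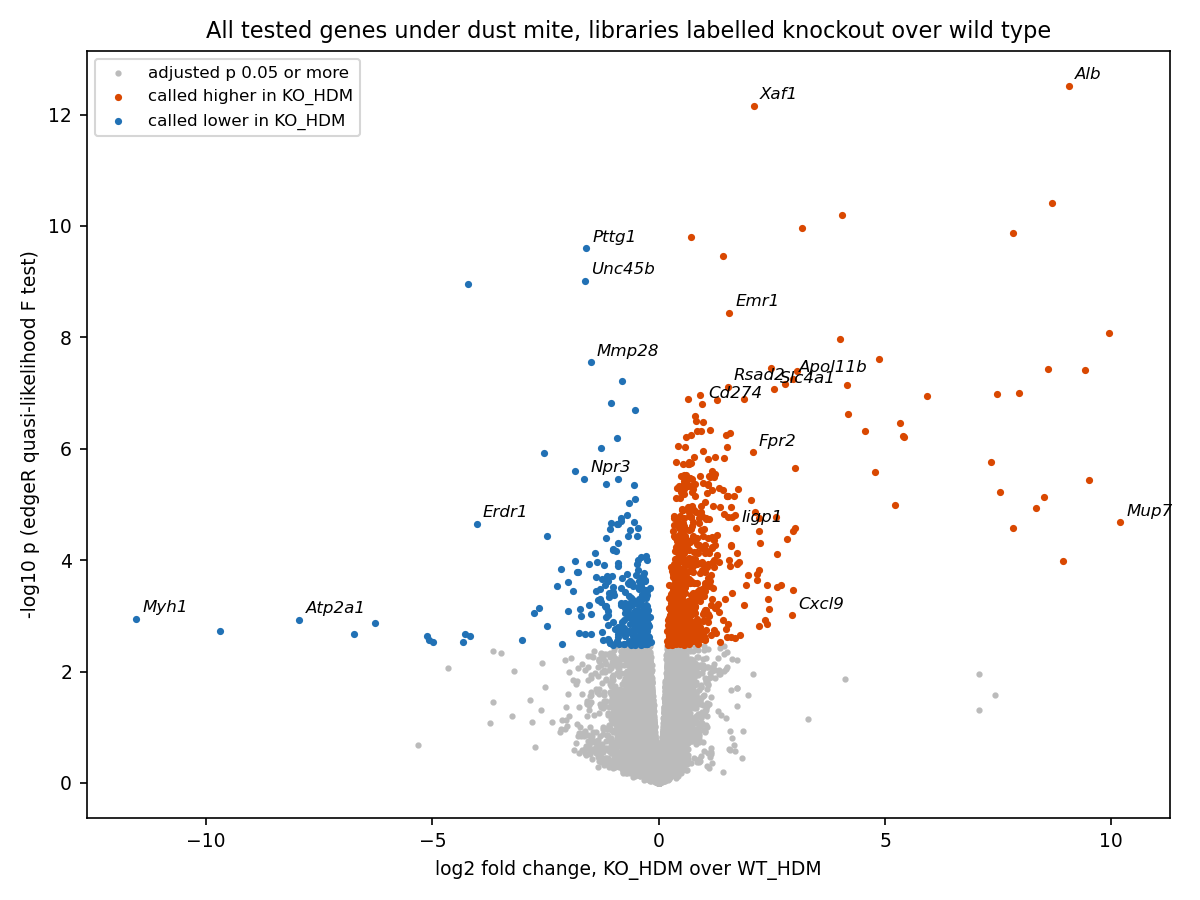
Log2 fold change of KO_HDM over WT_HDM (x) against −log10 of the edgeR p (y) for each of the 16193 tested genes; called genes are orange (higher) or blue (lower). Xaf1, Pttg1, Unc45b and Emr1 combine moderate fold changes with small p-values, while liver genes such as Mup7 lie far to the right and muscle genes such as Myh1 far to the left.

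Most genes of the interferon gamma response rose. Of its 21 tested members 15 were called higher and 0 lower, a share of 71.4% beside 4.79% over all genes, and the list's median log2 fold change was 0.97 (-0.08 under saline). Members called higher included both chemokines, 6 guanylate-binding proteins, the immunity-related GTPases Iigp1, Igtp, Irgm1, Tgtp1 and Tgtp2, the checkpoint ligand Cd274 and the tryptophan-degrading enzyme Ido1. Those tested and not called were Irf1 (0.37), Gbp4 (0.54), Gbp9 (0.27), Irgm2 (0.32), Socs1 (0.23) and Nos2 (0.07). The libraries labelled knockout were uneven: among the 5 of them KO_HDM 4 was the highest for all 15 called genes and KO_HDM 1 the lowest for 14. The count was 9 without KO_HDM 4 and 9 without WT_HDM 4, and 10 with the 10 compared libraries fitted alone or without the 3 libraries rich in fat or muscle transcripts (WT_HDM 2, WT_HDM 4 and KO_HDM 5).

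Cd274, which encodes the T cell inhibitor PD-L1, was at 57.8, 54.4, 56.6, 50.3 and 46.9 CPM in WT_HDM 1 to 5 and at 89.2, 104, 101, 132 and 91.4 CPM in KO_HDM 1 to 5. The groups did not overlap, and the difference was 0.96 ± 0.12 (adjusted p = 7.4e-05, called in each of 35 alternative fits). Cxcl10, a ligand of the receptor Cxcr3 that draws in activated T cells, was at 2.60, 4.86, 1.71, 1.86 and 1.78 CPM against 4.75, 11.2, 13.7, 21.2 and 8.35 CPM (2.21 ± 0.39, adjusted p = 0.00175). Here WT_HDM 2 lay just above KO_HDM 1, and the other KO_HDM libraries were higher than all of WT_HDM. Cxcl9, the other ligand, held 6.24, 7.04, 8.16, 4.86 and 3.52 CPM in WT_HDM and 19.6, 44.6, 62.6, 75.4 and 26.1 CPM in KO_HDM, a difference of 2.94 ± 0.74 (adjusted p = 0.0235). The groups did not overlap, but the spread in KO_HDM was wide and the call ended without WT_HDM 4 (adjusted p = 0.0600), WT_HDM 5 (0.0530), KO_HDM 3 (0.0562) or KO_HDM 4 (0.0708), within a range of 0.00152 to 0.0862 over the alternatives.

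Iigp1, a GTPase that disrupts the vacuoles of intracellular pathogens, was at 59.5, 69.7, 66.4, 44.4 and 84.5 CPM in WT_HDM and 94.1, 238, 209, 358 and 154 CPM in KO_HDM (1.70 ± 0.31, adjusted p = 0.00231). Gbp6, a guanylate-binding protein of the same defence, was at 46.7, 58.7, 52.5, 31.8 and 54.8 CPM and 61.7, 109.6, 107, 155 and 82.2 CPM (1.08 ± 0.20, adjusted p = 0.00301). For both, every KO_HDM library exceeded every WT_HDM library and KO_HDM 4 was the highest. Under saline their genotype differences were -0.04 and -0.31. The test of the interaction, the genotype difference under dust mite minus that under saline, called Cd274 (1.01 ± 0.17, adjusted p = 0.00809) and Gbp6 (1.39 ± 0.29, adjusted p = 0.0225) and not Iigp1 (1.73 ± 0.43, adjusted p = 0.0521). Over the interferon gamma list the interaction was called positive for 3 of the 21 tested members and negative for 0. Reads of Tgtp1 and Tgtp2 and of neighbouring guanylate-binding protein genes can be shared between near-identical copies by the authors' counting, so single members of these families are uncertain.

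Ifng, which encodes the cytokine itself, was too low to be tested: it held 13 counts over the 5 WT_HDM libraries and 84 over the 5 KO_HDM libraries. Its level was 0.185, 0.128, 0.233, 0.155 and 0.0990 CPM in WT_HDM and 0.427, 1.02, 0.875, 1.32 and 0.701 CPM in KO_HDM, with no overlap. T cell genes had 0 calls among 19 tested (median 0.56) and genes of NK and cytotoxic cells 0 among 13 (median 0.19).

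Interferon-activated factors are known to bind short motifs before the start of their target genes, and 5 promoters of called genes that hold such letters are shown so that they can be read beside the values. The sequences are the 250 bases before the annotated start in RefSeq (build GRCm38.p6; the build behind the deposited counts is uncertain), 5′ to 3′ on the gene's strand. Capitals mark matches, on either strand, to the interferon-stimulated response element core (GAAA, any 2 bases, GAAA) or the gamma-activated site (TTC, any 3 bases, GAA), and overlapping matches are merged. Cxcl10 is at chr5:92348890-92349139 (minus strand), Gbp2 at chr3:142620413-142620662, Gbp5 at chr3:142496684-142496933, Gbp3 at chr3:142559794-142560043 and B2m, of the class I list described next, at chr2:122147437-122147686 (all plus strand). Gbp2 rose from 70.1 ± 15.5 to 151 ± 63.8 CPM (SD, n = 5; 1.11 ± 0.22), Gbp5 from 21.4 ± 3.04 to 45.2 ± 18.0 CPM (1.08 ± 0.22) and Gbp3 from 40.9 ± 7.61 to 69.3 ± 18.6 CPM (0.76 ± 0.16).
Cxcl10: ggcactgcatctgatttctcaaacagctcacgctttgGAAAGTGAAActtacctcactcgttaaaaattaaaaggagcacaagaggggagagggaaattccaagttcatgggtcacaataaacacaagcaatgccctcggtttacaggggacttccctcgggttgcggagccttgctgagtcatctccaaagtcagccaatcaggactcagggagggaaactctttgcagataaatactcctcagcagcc
Gbp2: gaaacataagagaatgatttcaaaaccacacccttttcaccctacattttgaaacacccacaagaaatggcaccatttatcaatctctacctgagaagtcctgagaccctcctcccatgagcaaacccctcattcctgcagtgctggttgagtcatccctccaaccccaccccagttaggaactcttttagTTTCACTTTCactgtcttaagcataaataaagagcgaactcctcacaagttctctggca
Gbp5: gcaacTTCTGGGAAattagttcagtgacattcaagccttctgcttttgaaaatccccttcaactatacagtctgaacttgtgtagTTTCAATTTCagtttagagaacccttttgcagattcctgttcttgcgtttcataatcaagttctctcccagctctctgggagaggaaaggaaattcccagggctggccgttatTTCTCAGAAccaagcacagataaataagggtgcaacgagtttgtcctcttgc
Gbp3: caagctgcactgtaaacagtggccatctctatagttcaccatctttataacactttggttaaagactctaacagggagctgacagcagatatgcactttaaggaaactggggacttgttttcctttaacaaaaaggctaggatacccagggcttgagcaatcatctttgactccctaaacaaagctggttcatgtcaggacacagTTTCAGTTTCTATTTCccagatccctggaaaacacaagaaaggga
B2m: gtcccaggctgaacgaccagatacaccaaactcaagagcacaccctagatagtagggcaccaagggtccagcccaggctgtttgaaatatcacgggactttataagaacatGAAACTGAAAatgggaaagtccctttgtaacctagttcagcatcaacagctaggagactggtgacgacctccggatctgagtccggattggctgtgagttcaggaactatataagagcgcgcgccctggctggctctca
Of the 21 tested members 14 had a promoter in the RefSeq table, and 11 of these (78.6%) held the response element core and 7 the gamma-activated site. In the class I list 15 of the 17 tested members had a promoter, of which 3 held the response element core, and 2 of the 8 called did, B2m among them. Over all 27025 promoters of that length the shares were 3.04% and 7.18%. Among all called genes 575 of the 775 higher ones had a promoter and 8.17% held the response element core, 216 of the 305 lower ones had a promoter and 1.39% held it, and the share over the 11923 tested genes with a promoter was 2.74%. The gamma-activated site was in 8.35% of the higher ones, 3.24% of the lower ones and 6.22% of the tested ones. In the class I list it was in 1 of the 15 promoters and in 0 of the 8 called. Of 28 tested type I interferon response genes, described below, 19 had a promoter. The response element core was in 47.4% of these and the gamma-activated site in 15.8%. A match describes the letters in this window and does not show that a factor was bound.

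Of the 17 tested members of the list MHC class I and immunoproteasome, which loads and presents peptides to cytotoxic T cells, 8 were called higher and 0 lower (47.1%), with a median of 0.45 (5 without KO_HDM 4, 13 with the Rn45s share as a covariate). Among the libraries labelled knockout KO_HDM 4 was the highest for all 8 called genes and KO_HDM 1 the lowest for 5. B2m, the shared light chain of all class I molecules, was at 1024, 1059, 516, 669 and 1012 CPM in WT_HDM and 1253, 1799, 1820.02, 2159.7 and 1296 CPM in KO_HDM, with no overlap (0.96 ± 0.20, adjusted p = 0.00723). H2-Q7, a non-classical heavy chain, was at 34.0, 47.7, 35.4, 28.8 and 41.4 CPM against 55.2, 71.7, 78.2, 99.9 and 80.2 CPM (1.04 ± 0.18, adjusted p = 0.0018). H2-K1, a classical heavy chain, rose from 855 ± 114 to 1441 ± 215 CPM (SD, n = 5; 0.75 ± 0.16), and Erap1, which trims peptides for class I, by 0.40 ± 0.09. All 4 kept their call in each of the 35 alternatives. The interaction was called for 0 of the 17 tested members. Genes of MHC class II, the molecules of antigen-presenting cells, had 0 calls among 11 (median 0.34), among them H2-Ab1 (0.40) and Cd74 (0.38). Heavy chain genes are near-identical copies whose reads may be split between them.

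Type I interferon genes moved less. Of 28 tested members of the type I interferon response list, 6 were called higher and 0 lower (21.4%), with a median of 0.26; the count was 3 without WT_HDM 3, WT_HDM 4, KO_HDM 3 or KO_HDM 4. The clearest were Xaf1, a partner of the apoptosis inhibitor XIAP, and Rsad2, the antiviral enzyme viperin. Xaf1 was at 15.8, 15.5, 17.1, 11.3 and 14.6 CPM in WT_HDM and 55.4, 63.9, 68.2, 74.3 and 56.6 CPM in KO_HDM (2.1 ± 0.13, adjusted p = 5.59e-09), and Rsad2 at 20.02, 24.8, 14.5, 17.6 and 18.7 CPM and 55.1, 47.5, 60.9, 65.6 and 46.1 CPM (1.52 ± 0.18, adjusted p = 4.98e-05). Both were also higher in KO_saline than in WT_saline, by 1.86 and 2.03, and the interaction was called for neither (adjusted p = 0.535 and 0.334). Other members such as Isg15 (0.35), Ifit1 (0.19), Irf7 (0.30), Mx1 (-0.12) and Oas2 (-0.16) were not called.

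**Figure D3:**
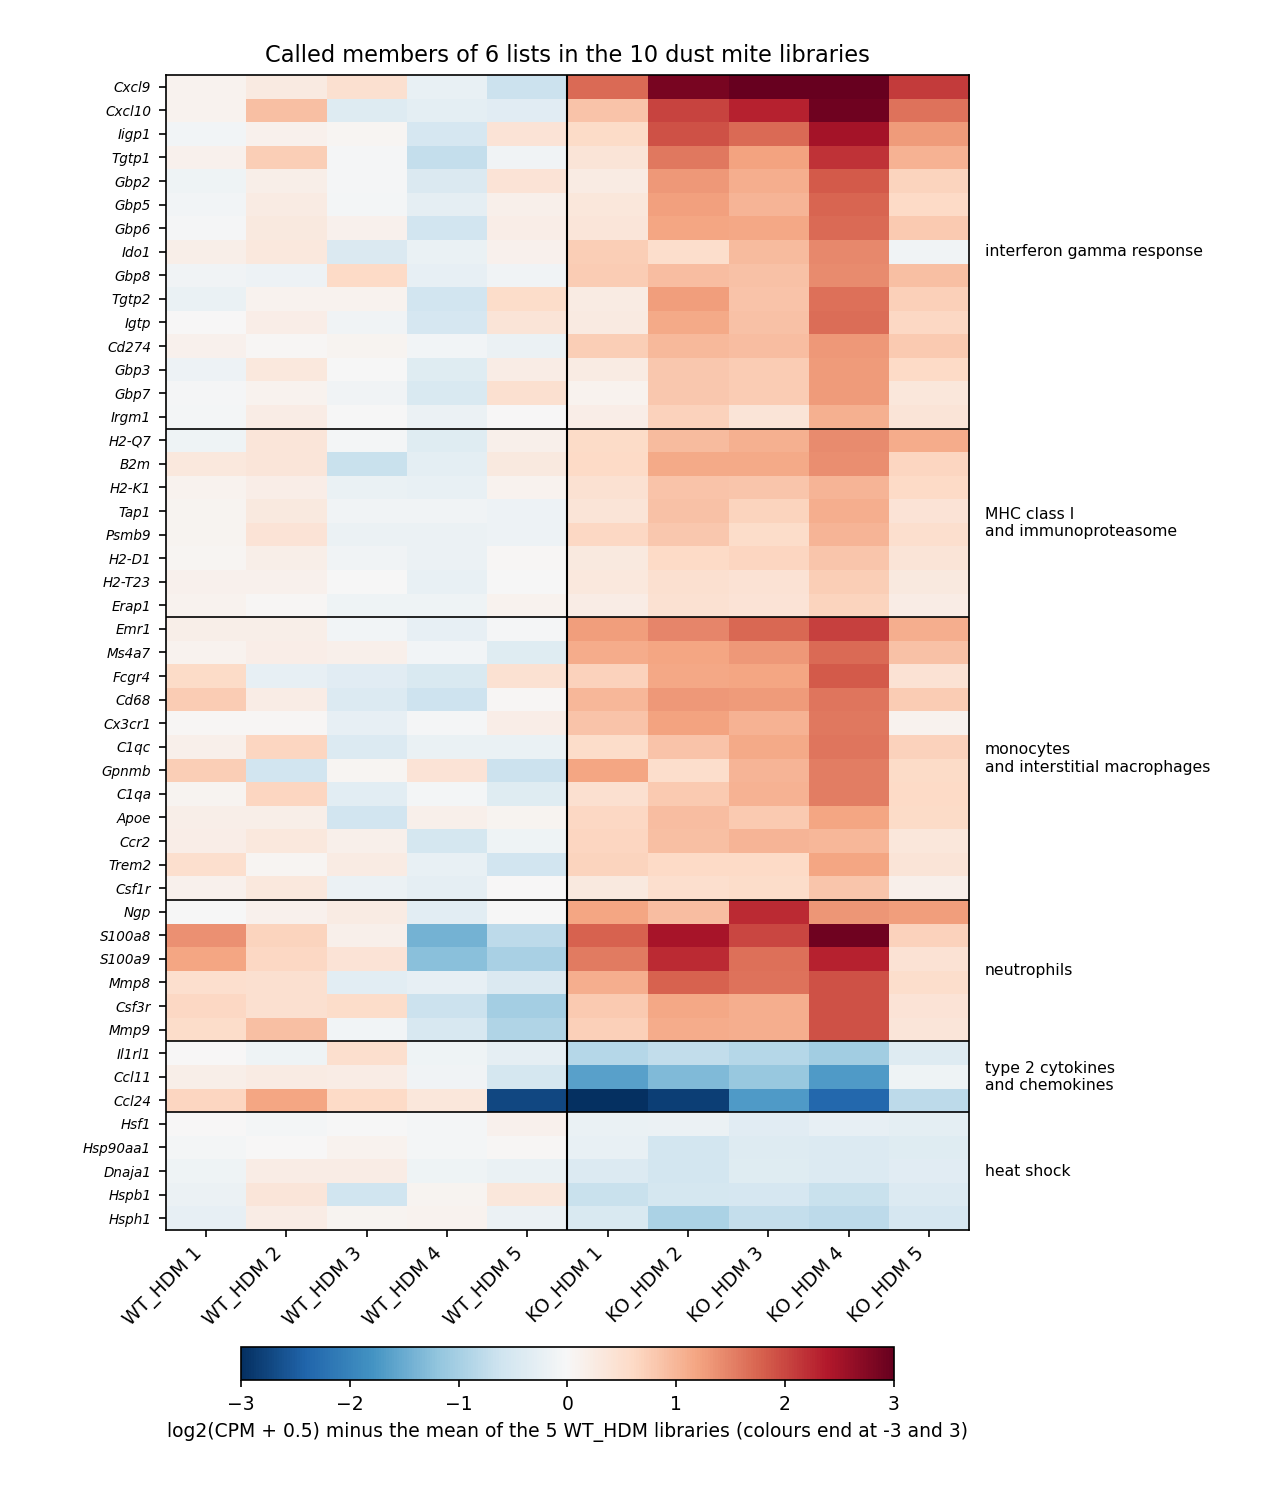
Log2(CPM + 0.5) of the 49 called members of 6 lists in the 10 dust mite libraries, minus the mean of the 5 WT_HDM libraries; red is higher and blue lower, and colours end at −3 and 3. KO_HDM 4 is the darkest red column for most interferon and macrophage genes, and the 3 type 2 genes are blue in the KO_HDM columns, with Ccl24 also blue in WT_HDM 5.

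Markers of monocytes and interstitial macrophages, the recruited and tissue macrophages of the lung outside the airspace, rose too. Of 17 tested members 12 were called higher and 0 lower (70.6%), with a median of 0.86 and -0.05 under saline. Emr1, which encodes the macrophage surface receptor F4/80, was at 54.8, 55.4, 46.2, 40.8 and 47.9 CPM in WT_HDM 1 to 5 and at 118, 136, 161, 204 and 104 CPM in KO_HDM 1 to 5. The lowest KO_HDM library was far above the highest WT_HDM library, and the difference of 1.56 ± 0.15 (adjusted p = 4.86e-06) was called in all 35 alternatives. Under saline Emr1 differed by -0.05, and its interaction was 1.61 ± 0.22 (adjusted p = 0.00109). Emr1 was the only 1 of the 17 members with a called interaction. In whole lung more cells of a type and more RNA per cell cannot be told apart.

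Ms4a7, a membrane protein of tissue macrophages, was at 15.7, 16.6, 16.2, 13.7 and 11.2 CPM against 32.0, 33.8, 36.7, 48.4 and 27.0 CPM (1.28 ± 0.24, adjusted p = 0.00286). Cx3cr1, the fractalkine receptor of monocytes, was at 20.2, 20.3, 16.6, 19.1 and 22.8 CPM against 36.2, 46.1, 41.2, 60.0 and 21.3 CPM (1.05 ± 0.18, adjusted p = 0.00175). Ms4a7 did not overlap between the groups, whereas for Cx3cr1 the lowest library, KO_HDM 5, lay within the WT_HDM range. Cd68, a lysosomal protein of phagocytes, rose from 60.8 ± 24.1 to 133 ± 29.8 CPM (SD, n = 5; 1.13 ± 0.25, adjusted p = 0.00975); with the Rn45s share as a covariate its adjusted p was 0.0625, the highest of a range from 0.000225. The list count rests on several libraries: monocytes and interstitial macrophages had 5 higher calls without KO_HDM 4, 6 without WT_HDM 3, 7 without WT_HDM 4, WT_HDM 5 or KO_HDM 3 and 7 with the 10 libraries alone. The summed level of the list was 1124 to 1664 CPM in WT_HDM and 1852 to 3416 CPM in KO_HDM, without overlap. Of 18 tested alveolar macrophage markers, 1 was called higher (Fabp1, 3.05 ± 0.35, which is also a liver gene) and 1 lower (Krt79, -1.33 ± 0.32, adjusted p = 0.0158; 0.0508 without KO_HDM 4 and 0.0511 with limma voom), and the median was -0.04. For alveolar macrophages 3 genes were called higher with DESeq2, 3 without WT_HDM 1 and 3, with 2 lower, without KO_HDM 5, and the difference from the list of monocytes and interstitial macrophages was not tested.

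Fpr2, a formyl peptide receptor also described as a receptor of lipoxin A4, was at 10.6, 7.68, 5.98, 4.14 and 10.7 CPM in WT_HDM and 24.98, 48.6, 34.9, 33.0 and 23.6 CPM in KO_HDM. No libraries overlapped, and the difference was 2.08 ± 0.30 (adjusted p = 0.00032) beside -0.24 under saline, with an interaction of 2.31 ± 0.42 (adjusted p = 0.0108). C3ar1, the receptor of complement fragment C3a, was at 36.9, 39.0, 34.2, 28.0 and 27.6 CPM against 68.6, 74.7, 100.05, 165 and 60.8 CPM (1.5 ± 0.21, adjusted p = 0.000271), and its interaction was 1.33 ± 0.30 (adjusted p = 0.0356). C5ar1, the C5a receptor, rose by 1.2 ± 0.20 (adjusted p = 0.00132). In the complement list 6 of 21 members were called higher and 0 lower with a median of 0.00, the others being C1qa, C1ra, C1s1 and Cfb, while C3 (0.09) and C4b (-0.13) were not called. The C1ra call was lost in 7 of 35 alternatives, 5 of them without 1 dust mite library (adjusted p up to 0.08985, and 0.0725 with the Rn45s covariate). The complement count was 3 without WT_HDM 3, WT_HDM 4, KO_HDM 2, KO_HDM 3 or KO_HDM 4, and DESeq2 gave 7 higher and 3 lower.

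Cd200r4, an activating member of the Cd200 receptor family on myeloid cells, was at 13.9, 7.87, 7.62, 6.52 and 10.1 CPM in WT_HDM and 32.9, 35.3, 35.5, 39.4 and 27.6 CPM in KO_HDM (1.89 ± 0.23, adjusted p = 6.45e-05; interaction 1.58 ± 0.34, adjusted p = 0.0272). Clec4d, a C-type lectin that recognises mycobacterial glycolipid, was at 11.2, 10.4, 8.004, 5.53 and 4.90 CPM against 24.9, 19.7, 23.8, 46.5 and 13.04 CPM (1.68 ± 0.29, adjusted p = 0.00167). Slc13a3, a sodium-coupled dicarboxylate transporter, was at 3.65, 4.41, 2.95, 2.07 and 3.17 CPM against 7.20, 13.1, 10.6, 18.3 and 5.23 CPM (1.74 ± 0.28, adjusted p = 0.000806). These 3 were picked among rises without overlap, and KO_HDM 4 was their highest library. Saa3, an acute-phase serum amyloid made by macrophages and epithelium, was at 40.4, 73.7, 42.3, 21.7 and 8.42 CPM against 87.2, 166, 169, 288 and 128 CPM (2.17 ± 0.46, adjusted p = 0.00799; 0.0509 with the 10 libraries alone and 0.0564 with the Rn45s covariate, the highest over its alternatives from 0.000265).

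The lipid mediator pathway around Alox15 changed in a few members. Of 17 tested genes in the list of lipoxygenases and the leukotriene pathway, 4 were called higher and 1 lower, with a median of 0.17. Alox5ap, the protein that presents arachidonic acid to 5-lipoxygenase, was at 27.7, 26.4, 20.4, 15.8 and 25.5 CPM in WT_HDM and 38.2, 44.4, 43.4, 55.4 and 29.3 CPM in KO_HDM, without overlap (0.86 ± 0.17, adjusted p = 0.00441; 0.0653 with the Rn45s covariate, the highest over its alternatives from 8.06e-05). Dpep2, a dipeptidase that converts leukotriene D4 to E4, was at 10.1, 7.74, 9.01, 4.96 and 7.53 CPM against 15.3, 15.2, 15.6, 16.8 and 11.1 CPM (0.91 ± 0.16, adjusted p = 0.00167). Alox5 itself (-0.09), Lta4h (0.17), Ltc4s (-0.25) and the neighbouring lipoxygenase gene Alox12 (0.12) were not called. Fpr1, another formyl peptide receptor, had 1.49 ± 0.41 with an adjusted p of 0.0337, a call that ended without any of 6 dust mite libraries (WT_HDM 2, 3 or 4, KO_HDM 2, 3 or 4; adjusted p up to 0.105) and reached 0.356 with the Rn45s covariate. The dipeptidase Dpep1 was lower (-0.82 ± 0.23, adjusted p = 0.0355), a call that ended without WT_HDM 1, 4 or 5, without KO_HDM 3, 4 or 5 and with the 10 libraries alone.

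Among 19 genes of prostaglandins and thromboxane, 3 were called higher and 0 lower, with a median of -0.02. Tbxas1, the thromboxane synthase of macrophages and platelets, was at 35.0, 24.5, 30.1, 17.5 and 29.0 CPM in WT_HDM and 41.1, 49.4, 45.9, 50.8 and 40.04 CPM in KO_HDM (0.74 ± 0.14, adjusted p = 0.00318; 0.0805 with the Rn45s covariate, the highest over its alternatives from 2.14e-05). Ptger2, a prostaglandin E2 receptor, was at 10.9, 10.9, 12.0, 7.71 and 10.1 CPM against 14.1, 14.96, 14.6, 15.4 and 12.7 CPM (0.48 ± 0.11, adjusted p = 0.0106). Neither gene overlapped between the groups. Ptgs1 (-0.27) and Ptgs2 (0.47), the cyclooxygenases, were not called.

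Neutrophil genes rose in part. Of 11 tested members 6 were called higher and 0 lower (54.5%), with a median of 1.02. The list was also higher in KO_saline over WT_saline, with a median of 0.82 and 2 members called higher. The interaction was called positive for 0 members and negative for 1. Mmp8, the neutrophil collagenase, was at 5.75, 5.57, 3.03, 3.21 and 2.72 CPM in WT_HDM and 8.86, 14.5, 12.9, 15.99 and 5.82 CPM in KO_HDM (1.52 ± 0.27, adjusted p = 0.00175). S100a8, a subunit of calprotectin, was at 23.296, 14.1, 9.64, 2.95 and 4.80 CPM against 30.9, 50.5, 36.5, 69.0 and 14.2 CPM (1.88 ± 0.46, adjusted p = 0.0181). Mmp8 was apart between the groups, by a narrow margin, while S100a8 overlapped: KO_HDM 5 was below WT_HDM 1, and the call ended without KO_HDM 4 (adjusted p = 0.0621), with the 10 libraries alone (0.0973) and with the Rn45s covariate (0.119). Under saline S100a8 differed by 1.68 (adjusted p = 0.105). The number of neutrophils genes called was 2 without KO_HDM 4, 3 without WT_HDM 4, WT_HDM 5, KO_HDM 2 or KO_HDM 3, 2 with the 10 libraries alone and 1 with the Rn45s covariate. Cxcr2 (0.19) and Retnlg (-0.11) were not called.

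Genes of the type 2 response were lower where they were called. In the list of type 2 cytokines and chemokines 3 of 16 tested members were lower and 0 higher, with a median of -0.41 beside -0.38 under saline; the lower count was 1 without KO_HDM 2 or KO_HDM 4, 1 with the 10 libraries alone and 0 with the Rn45s covariate. Il1rl1, which encodes the Il33 receptor of innate lymphoid cells, mast cells and T helper 2 cells, was at 16.9, 15.2, 23.8, 15.3 and 13.8 CPM in WT_HDM and 9.02, 9.79, 9.05, 7.88 and 12.7 CPM in KO_HDM. The groups did not overlap (-0.81 ± 0.18, adjusted p = 0.00884; 0.0723 with the Rn45s covariate, the highest over its alternatives from 0.000515), and the difference under saline was -0.67 (adjusted p = 0.094).

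Ccl24, an eotaxin made by alternatively activated macrophages, was at 11.9, 17.5, 11.5, 9.57 and 0.693 CPM in WT_HDM and 0.374, 0.633, 1.95, 1.05 and 4.10 CPM in KO_HDM. In 4 WT_HDM libraries it was above all of KO_HDM, while WT_HDM 5 lay among the KO_HDM values. The difference was -2.66 ± 0.66 (adjusted p = 0.0198), and the call ended without KO_HDM 2 (0.0554), without KO_HDM 4 (0.0684), with limma voom (0.118), with the 10 libraries alone (0.0884) and with the Rn45s covariate (0.183, the highest over alternatives from 0.000784). Ccl11, the eotaxin of fibroblasts and epithelium, was at 22.2, 23.6, 23.1, 18.3 and 13.4 CPM against 6.03, 7.60, 8.66, 5.68 and 18.1 CPM (-1.13 ± 0.32, adjusted p = 0.0429). KO_HDM 5 was within the WT_HDM range, and the call ended without any single dust mite library except WT_HDM 5 and KO_HDM 5 and without any single KO_saline library (adjusted p up to 0.136), and with the Rn45s covariate (0.268). Il5 (-0.62), Il33 (-0.20), Tslp (0.08), Ccl17 (-0.87) and Ccr3 (-1.05) were not called. Il4 was too low to be tested, with 29 counts over WT_HDM (0.247, 0.448, 0.389, 0.414 and 0.248 CPM) and 9 over KO_HDM (0.160, 0.0487, 0.0486, 0.0551 and 0.162 CPM), which did not overlap, and Il13 had 34 and 31 counts.

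Within the list of alternative macrophage activation 4 of 17 members were lower and 1 higher, with a median of -0.50. Cd209a, a mouse relative of the lectin DC-SIGN, was at 9.21, 9.73, 7.69, 6.98 and 12.1 CPM in WT_HDM and 5.98, 5.16, 4.33, 3.31 and 5.82 CPM in KO_HDM (-0.90 ± 0.17, adjusted p = 0.00347). Mgl2, a galactose lectin of type 2 dendritic cells and macrophages, was at 41.5, 48.8, 43.3, 31.1 and 34.2 CPM against 15.1, 28.9, 25.2, 12.57 and 24.2 CPM (-0.91 ± 0.19, adjusted p = 0.00644). Neither overlapped. Fn1, fibronectin, was the member that rose, from 1663 ± 440.3 to 2979 ± 456 CPM (SD, n = 5; 0.84 ± 0.17, adjusted p = 0.00437). The best known products of this state were not called: Arg1 had -1.06, Retnla -0.68, Chil3 -0.50 and Mrc1 0.35. The lower count for alternative macrophage activation was 2 without KO_HDM 2 or KO_HDM 4 and 2 with the Rn45s covariate, and the higher count was 2 without WT_HDM 1 and 2 with DESeq2.

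Markers of the eosinophil and mucus response showed few calls. Eosinophils had 0 calls among 10 tested genes with a median of -0.49, and the abundant granule protein Prg2 was at -0.52. Goblet cell and mucus genes had 0 among 17, with Clca3 at -0.48, Muc5ac at 0.32 and Muc5b at 0.08. Mast cell and basophil genes had 1 of 10 lower, the mucosal mast cell protease Mcpt1 (-2.01 ± 0.51, adjusted p = 0.0215), whose call ended without WT_HDM 3 (0.0783), KO_HDM 3 (0.0616) or KO_HDM 4 (0.0606), with the 10 libraries alone (0.0907) and with the Rn45s covariate (0.237), and a median of -0.82. The lower count for mast cells and basophils was 3 without WT_HDM 4 and 3 with an adipose covariate. Chia1, the acidic chitinase that epithelium makes in allergic lung, was at 433, 363, 359, 256 and 353 CPM in WT_HDM and 91.2, 133, 249.5, 73.8 and 246 CPM in KO_HDM (-1.15 ± 0.28, adjusted p = 0.019; 0.0524 without KO_HDM 2 and 0.0803 with the 10 libraries alone, the highest over its alternatives from 0.00114). Its groups did not overlap, as the rule for the named falls requires.

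Among the genes with the largest falls was Npr3, the clearance receptor of natriuretic peptides. It was at 115, 77.9, 97.1, 102 and 198 CPM in WT_HDM and 31.2, 36.2, 47.1, 34.0 and 39.6 CPM in KO_HDM (-1.65 ± 0.25, adjusted p = 0.000642). Mmp28, an epithelial matrix metalloproteinase, was at 12.9, 9.53, 13.1, 14.6 and 18.5 CPM against 5.23, 5.55, 5.01, 3.91 and 4.53 CPM (-1.5 ± 0.17, adjusted p = 2.8e-05; interaction -0.99 ± 0.23, adjusted p = 0.0404). Both were named among the largest falls, which were picked without overlap between the groups. Zbtb16, the transcription factor PLZF, was at 127, 91.5, 103, 144 and 118 CPM against 32.5, 26.9, 41.8, 20.2 and 36.8 CPM (-1.88 ± 0.43, adjusted p = 0.0125); its adjusted p was 0.0634 without the 5 libraries rich in Adipoq, the highest over alternatives from 6.72e-05, and 0.0557 without the 3 of them given dust mite.

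Fbp1, the gluconeogenic fructose bisphosphatase, was at 46.0, 27.4, 19.0, 14.9 and 17.7 CPM in WT_HDM and 3.26, 6.09, 9.58, 2.48 and 14.3 CPM in KO_HDM (-1.81 ± 0.39, adjusted p = 0.00766; 0.0696 with the 10 libraries alone, the highest over its alternatives from 0.000345). Its lowest WT_HDM library was close to the highest of KO_HDM. Mmp13, a collagenase, was at 12.98, 23.4, 15.4, 17.2 and 3.56 CPM against 2.29, 1.95, 3.16, 3.31 and 1.72 CPM (-2.54 ± 0.37, adjusted p = 0.000328). Of 14 matrix metalloproteinases and inhibitors it was the only member called lower, beside 3 higher (Mmp8, Mmp9 and Mmp14). The Mmp9 call was lost in 20 of 35 alternatives, 14 of them without 1 library (adjusted p up to 0.179). Mmp12, the macrophage elastase, was at -0.82 and was not called.

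Gpx3, the secreted glutathione peroxidase, was at 481, 454, 323, 606 and 428 CPM in WT_HDM and 226, 247, 231, 229 and 289 CPM in KO_HDM (-0.91 ± 0.14, adjusted p = 0.000642). Every KO_HDM library was below every WT_HDM library. It was the only member of the glutathione, ferritin and ferroptosis list that fell, while 3 of the 24 rose. Those were Fth1, the ferritin heavy chain (0.72 ± 0.14), Ncoa4, which delivers ferritin to lysosomes (0.45 ± 0.09, and 0.50 under saline), and Gclm (0.40 ± 0.11), a subunit of the enzyme that starts glutathione synthesis. Gclm lost its call without WT_HDM 2, WT_HDM 3, WT_HDM 4, KO_HDM 3 or KO_HDM 4 (adjusted p up to 0.0882), without the libraries rich in Adipoq (0.0906) or the 3 of them given dust mite (0.0973), and with the Rn45s covariate (0.217). Other named falls, picked without overlap, were of low level. Lgals2, a galectin, was at 1.60 to 2.87 against 0.701 to 1.17 CPM (-1.41 ± 0.28). Fam57b was at 1.63 to 2.43 against 0.662 to 1.17 CPM (-1.27 ± 0.18). Bcan, a brain proteoglycan, was at 1.28 to 2.77 against 0.331 to 1.19 CPM (-1.29 ± 0.31). The adjusted p of Bcan was 0.0605 with the 10 libraries alone, from 0.00158 at best. Cpne5 was at 2.24 to 4.81 against 0.731 to 1.67 CPM (-1.53 ± 0.32).

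Myrip, which links Rab27 to myosin, was at 26.3, 16.9, 19.5, 25.5 and 34.9 CPM in WT_HDM and 11.3, 11.8, 11.5, 10.2 and 9.75 CPM in KO_HDM (-1.17 ± 0.22, adjusted p = 0.00301), with 0.38 under saline and an interaction of -1.56 ± 0.31 (adjusted p = 0.0182). Clec1b, the platelet receptor of podoplanin, was at 14.9, 9.98, 14.1, 6.41 and 10.2 CPM against 4.80, 5.26, 4.72, 4.96 and 4.96 CPM (-1.17 ± 0.18, adjusted p = 0.000735). Pf4, the platelet factor 4 chemokine, went the other way (1.18 ± 0.23, adjusted p = 0.00383), and these were the only members of 13 platelet genes called.

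Of 14 tested members of the heat shock list 5 were called lower and 0 higher (35.7% beside 1.88% over all genes), with a median of -0.32. Hsp90aa1, the inducible Hsp90, was at 609, 642, 687, 612 and 651 CPM in WT_HDM and 549, 435, 487, 479.7 and 494 CPM in KO_HDM (-0.39 ± 0.09, adjusted p = 0.00982), without overlap. Hsph1, a Hsp110 chaperone, was at 82.2, 114, 103, 105 and 86.4 CPM against 70.3, 49.9, 58.9, 56.2 and 68.0 CPM (-0.69 ± 0.15, adjusted p = 0.00804). With the share of Rn45s as a covariate, 0 heat shock genes were called (adjusted p = 0.0687 for Hsp90aa1 and 0.151 for Hsph1, the highest over alternatives from 8.09e-05 and 0.000451), and without the 3 libraries rich in fat or muscle transcripts 1 was. The count of heat shock genes was 3 without WT_HDM 4, WT_HDM 5, KO_HDM 2, KO_HDM 3 or KO_HDM 4.

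**Figure D4:**
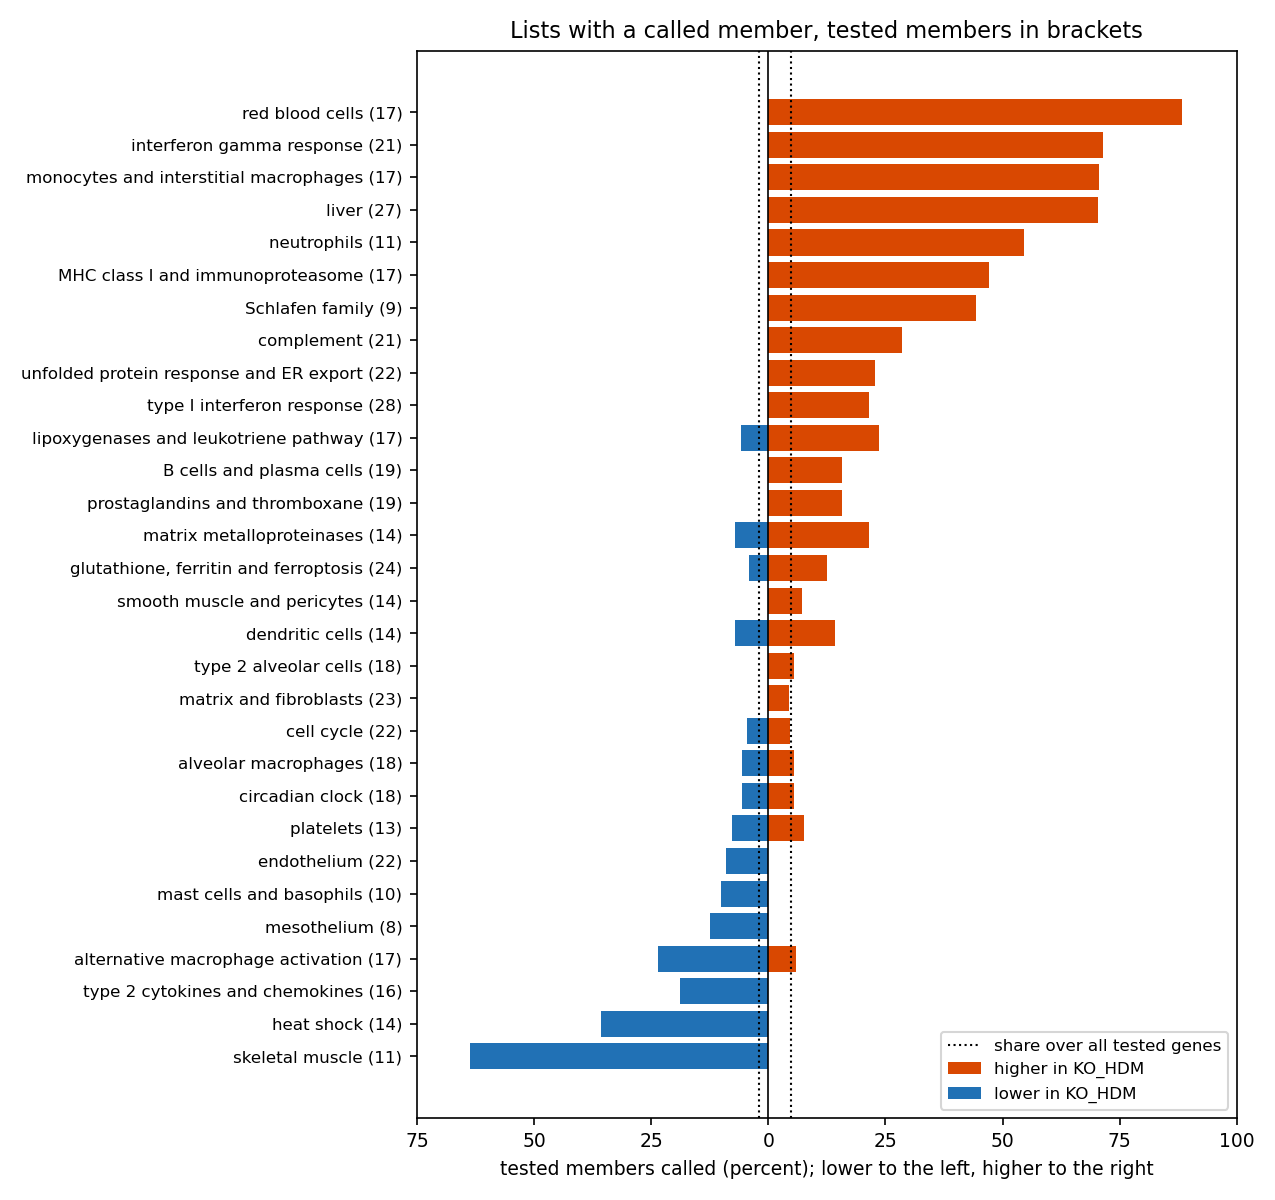
Percent of tested members called higher (to the right, orange) or lower (to the left, blue) in KO_HDM for the 30 of 45 lists with a called member, with the number tested in brackets. Dotted lines mark the shares over all tested genes, 4.79% higher and 1.88% lower; red blood cell, interferon gamma, macrophage and liver lists reach furthest right and skeletal muscle furthest left.

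Lists of structural lung cells had few calls. Club cells (12 tested), ciliated cells (17) and type 1 alveolar cells (14) had 0 calls, although up to 3 type 1 alveolar cells genes were lower in fits with an adipose or Rn45s covariate. Type 2 alveolar cell genes had 1 of 18, the lysozyme gene Lyz1 (0.79 ± 0.19, adjusted p = 0.0173; 0.0519 without KO_HDM 2, 0.0633 without the 3 libraries rich in fat or muscle transcripts and 0.243 with the Rn45s covariate), and Sftpc was at -0.27. Endothelial genes had 2 of 22 lower: Nos3, the endothelial nitric oxide synthase, at 15.3, 23.7, 21.1, 19.9 and 22.97 CPM against 10.8, 13.2, 15.5, 11.5 and 13.4 CPM (-0.68 ± 0.13, adjusted p = 0.00292; interaction -0.84 ± 0.18, adjusted p = 0.0263), and Vwf (-0.52 ± 0.15, adjusted p = 0.0397). For Nos3, KO_HDM 3 lay just above WT_HDM 1 and the other KO_HDM libraries were below all of WT_HDM, while Vwf lost its call without WT_HDM 1, 3 or 5 or KO_HDM 1, 2, 4 or 5 (adjusted p up to 0.0883). The count for endothelium was 8 with an adipose covariate, 5 with the Rn45s covariate and 4 with DESeq2. Hhip, which binds hedgehog ligands, was the 1 smooth muscle and pericyte gene of 14 called (0.96 ± 0.20, adjusted p = 0.00576; 0.0922 with the Rn45s covariate, the highest over its alternatives from 8.35e-05). Fibronectin was the only called member of 23 matrix and fibroblast genes, with Col1a1 at 0.52, and the Wnt enhancer Rspo1 the only one of 8 mesothelium genes (-0.57 ± 0.16; lost in 13 of 35 alternatives, 8 of them without 1 dust mite library and 1 without WT_saline 2, adjusted p up to 0.129 there and 0.218 with the Rn45s covariate).

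Other programmes had few calls. Among 19 genes of B cells and plasma cells 3 were higher: Prdm1, the plasma cell regulator Blimp-1 (24.0, 28.1, 22.8, 24.1 and 27.2 CPM against 40.8, 38.6, 42.5, 45.6 and 32.3 CPM, 0.66 ± 0.11, adjusted p = 0.00135), Xbp1 (0.37) and Derl3 (0.97). The count for B cells and plasma cells was 1 without WT_HDM 3, WT_HDM 5, KO_HDM 1 or KO_HDM 4 and 7 with an adipose covariate. Xbp1 and Derl3 also belong to the unfolded protein response and ER export list, where 5 of 22 were higher and 0 lower with a median of 0.22; Edem1, which extracts misfolded glycoproteins, led it (0.56 ± 0.11, adjusted p = 0.00379). That list was made after values of these libraries had been seen. Its count fell to 1 without WT_HDM 3, KO_HDM 1 or KO_HDM 4, to 2 without WT_HDM 4, WT_HDM 5 or KO_HDM 5, and to 0 with the 10 libraries alone, where Edem1 had an adjusted p of 0.0506 (from 5.41e-05 over its alternatives).

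Dendritic cell genes had 2 of 14 higher and 1 lower, Cd209a. Itgae, the CD103 integrin of cross-presenting dendritic cells and epithelial T cells, was at 23.9, 15.2, 21.4, 14.6 and 20.9 CPM in WT_HDM and 29.3, 49.4, 36.5, 39.6 and 25.4 CPM in KO_HDM (0.91 ± 0.20, adjusted p = 0.00775). Xcr1, the receptor of the same dendritic cells, had 0.67 ± 0.18 (adjusted p = 0.0293); the call ended without WT_HDM 2 (0.0643), WT_HDM 4 (0.0613) or KO_HDM 2 (0.0900), the library in which it was highest, without the libraries rich in Adipoq (0.132) or the 3 of them given dust mite (0.155), and with the Rn45s covariate (0.117). In the Schlafen family 4 of 9 were higher with a median of 0.82. Slfn9 was at 11.9, 20.9, 15.9, 10.9 and 9.06 CPM against 35.1, 31.9, 34.2, 51.2 and 34.3 CPM (1.45 ± 0.21, adjusted p = 0.000389). All 9 Schlafen genes lie on chromosome 11, the chromosome of Alox15.

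Cell cycle genes had 1 higher and 1 lower call among 22. Mki67, the proliferation antigen, was at 219, 281, 191, 274 and 95.6 CPM in WT_HDM and 122, 82.2, 79.8, 93.3 and 82.5 CPM in KO_HDM (-1.21 ± 0.25, adjusted p = 0.0062), and was lower in KO_saline as well (-1.79). WT_HDM 5 lay within the KO_HDM range, and with the Rn45s covariate the adjusted p was 0.169 (from 7.35e-05; 0.0986 without the 3 libraries rich in fat or muscle transcripts). Ccna2, cyclin A2, had 0.88 ± 0.25 (adjusted p = 0.0376, over 0.05 in 12 of 35 alternatives: without WT_HDM 1, 3, 4 or 5, KO_HDM 1, 2, 3 or 4, KO_saline 3, 4 or 5, and with the 10 libraries alone, up to 0.116), and the median of the 22 was 0.48. Of the 22, 20 had a positive log2 fold change. The count for this list varied widely between fits. Cell cycle genes called higher numbered 17 without the 5 libraries rich in Adipoq and 10 without the 3 of them given dust mite. They numbered 16 with the Rn45s covariate. The count was 0 without any 1 of 11 libraries, those in which Ccna2 lost its call. Circadian clock genes had 1 of 18 higher, Bhlhe41 (0.67; 0.95 under saline), and 1 lower, Arntl (-0.53; -0.97 under saline). The Arntl call was lost in 23 of 35 alternatives, 15 of them without 1 library (adjusted p up to 0.134, and 0.294 with the Rn45s covariate), and that of Bhlhe41 with the Rn45s covariate (0.0795). Lists of cholesterol synthesis and uptake (19 tested), foreign compound metabolism (24), immediate early genes (16), the respiratory chain (23) and ribosomal proteins (24) had 0 calls, as did the adipose tissue (15) and heart muscle (11) lists. Medians of the 15 lists without a call lay between -0.78 (adipose tissue) and 0.56 (T cells). In the Rn45s covariate fit 3 T cells genes were higher and 6 foreign compound metabolism genes lower.

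Red blood cell genes were higher in KO_HDM in 15 of 17 tested members and lower in 0 (88.2%), with a median of 1.21. Slc4a1, which exchanges chloride and bicarbonate across the red cell membrane, was at 5.99, 6.14, 4.82, 6.05 and 7.13 CPM in WT_HDM and 36.1, 42.0, 43.9, 33.5 and 21.4 CPM in KO_HDM (2.55 ± 0.30, adjusted p = 5.36e-05). Trim10, an erythroid ubiquitin ligase, was at 0.494, 0.832, 0.622, 0.724 and 0.792 CPM against 5.34, 5.36, 5.45, 5.24 and 2.96 CPM (2.79 ± 0.33). For both genes every KO_HDM library was above every WT_HDM library. The same list was higher in KO_saline over WT_saline, with a median of 1.96, and the interaction was called lower for 1 of its 17 members and higher for 0. The summed level was 2178 to 3725 CPM in WT_HDM and 5150 to 8554 CPM in KO_HDM. With the Rn45s share as a covariate 5 red blood cells genes were called. Globin reads are shared between copies, and Hbb-bt and Hbb-b2 have equal values in all 20 libraries. The part of blood in the samples was not tested.

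Albumin and several other liver genes were at or near 0 in WT_HDM and present in all 5 KO_HDM libraries. Of 27 tested members of the liver list, which was made after values of these libraries had been seen, 19 were higher and 0 lower (70.4%), with a median of 4.17 (-0.11 under saline); with the 4 members that had 0 counts in WT_HDM set to their bound it was also 4.17. The summed level of the list was 495 to 916 CPM in WT_HDM and 672 to 1047 CPM in KO_HDM, with overlap. Alb, serum albumin, had 8 counts over WT_HDM, at 0, 0.256, 0, 0 and 0.198 CPM, and 5247 over KO_HDM, at 20.1, 56.2, 76.4, 63.3 and 53.9 CPM. KO_HDM 1 was the lowest of the 5 and still stood above all others, and the interaction of Alb was called (adjusted p = 3.65e-06). Cps1, the urea cycle enzyme of hepatocytes, and Mup7, a major urinary protein, had 0 counts in WT_HDM; with a group floor of 3 counts, their counts were at least 181-fold and at least 212-fold higher in KO_HDM. Apob, the large lipoprotein of very low density particles, was at 10.6, 12.9, 6.76, 5.64 and 8.02 CPM against 13.3, 27.4, 33.1, 29.1 and 30.4 CPM (1.60 ± 0.27, adjusted p = 0.00135). Clec4f, a marker of the macrophages of liver, was too low to be tested, with 1 count over WT_HDM and 17 over KO_HDM, at most 0.487 CPM in a library. The part of liver transcripts in the other differences was not tested. How liver transcripts came to be in these libraries was not tested.

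Skeletal muscle genes were lower in KO_HDM through 1 library. Atp2a1, the calcium pump of fast muscle fibres, was at 1.61, 1080.3, 1.24, 2.07 and 1.39 CPM in WT_HDM and 1.07, 0.926, 0.827, 0.662 and 0.916 CPM in KO_HDM (-7.94 ± 2.04, adjusted p = 0.0264). WT_HDM 2 alone was high. Of 11 tested skeletal muscle members 7 were called lower with a median of -5.08; without WT_HDM 2 the calls were 0 and the median -0.06. Skeletal muscle calls were also 0 without KO_HDM 1, 2, 3 or 4, with DESeq2, with limma voom and with the Rn45s covariate, where Atp2a1 had an adjusted p of 0.628.

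The same genotype comparison in the saline libraries shares no library with that under dust mite. It called 147 genes (0.908%), 96 higher (0.593%) and 51 lower (0.315%). Of these, 66 were also called under dust mite, which is 44.9% of the saline calls and 6.11% of the dust mite calls. All 66 had the same direction, 47 higher and 19 lower. Besides red cell genes they include Apol11b, an apolipoprotein L gene (1.24, 2.56, 1.63, 1.34 and 1.24 CPM in WT_HDM and 12.3, 13.1, 16.3, 12.5 and 7.71 CPM in KO_HDM, 2.96 ± 0.34; 3.49 under saline). Apol11b was named among the largest rises, which were picked without overlap.

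Pttg1, which encodes securin, the inhibitor of sister chromatid separation, was at 19.5, 19.96, 15.9, 22.5 and 22.6 CPM in WT_HDM and 6.19, 7.16, 7.20, 7.28 and 5.28 CPM in KO_HDM (-1.60 ± 0.13, adjusted p = 5.06e-07). It was lower under saline too (-2.46), by more than under dust mite (interaction 0.86 ± 0.19, adjusted p = 0.0281). Unc45b, a myosin chaperone, was at 29.2, 38.8, 37.0, 41.8 and 32.6 CPM against 10.2, 10.2, 11.7, 8.43 and 17.0 CPM (-1.64 ± 0.15; -1.06 under saline). Erdr1, a gene of the region shared by X and Y, was at 58.1, 47.8, 31.4, 38.0 and 66.2 CPM against 0, 4.68, 0.0973, 6.67 and 3.45 CPM (-4.02 ± 0.70; -3.12 under saline). All 3 were named among the largest falls, which were picked without overlap.

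Of the 66 genes called in both comparisons, 21 (31.8%) lie on chromosome 11, which carries Alox15, Pttg1, Unc45b and Xaf1, while 8.10% of tested genes do. The 21 include the red cell genes Hba-a1, Hba-a2 and Slc4a1. Among all 1080 genes called under dust mite, 110 (10.2%) lie there. Without chromosome 11 edgeR called 966 genes under dust mite and 97 under saline.

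The interaction called 200 genes (1.24%). The genotype difference under dust mite minus that under saline was positive for 162 (1.00%) and negative for 38 (0.235%). Of the 1080 genes called under dust mite 174 were also called by the interaction. Of these, 145 were higher in KO_HDM with a positive interaction and 28 lower with a negative one. The interaction contains the dust mite difference itself and uses the same libraries, so this agreement in sign is largely built in. The interaction count depends on single libraries: it was 79 without KO_HDM 4, 95 without KO_saline 2, 112 without KO_saline 3, 116 without WT_saline 1, 117 without KO_HDM 3, 122 without WT_HDM 4 and 130 without KO_saline 5.

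**Figure D5:**
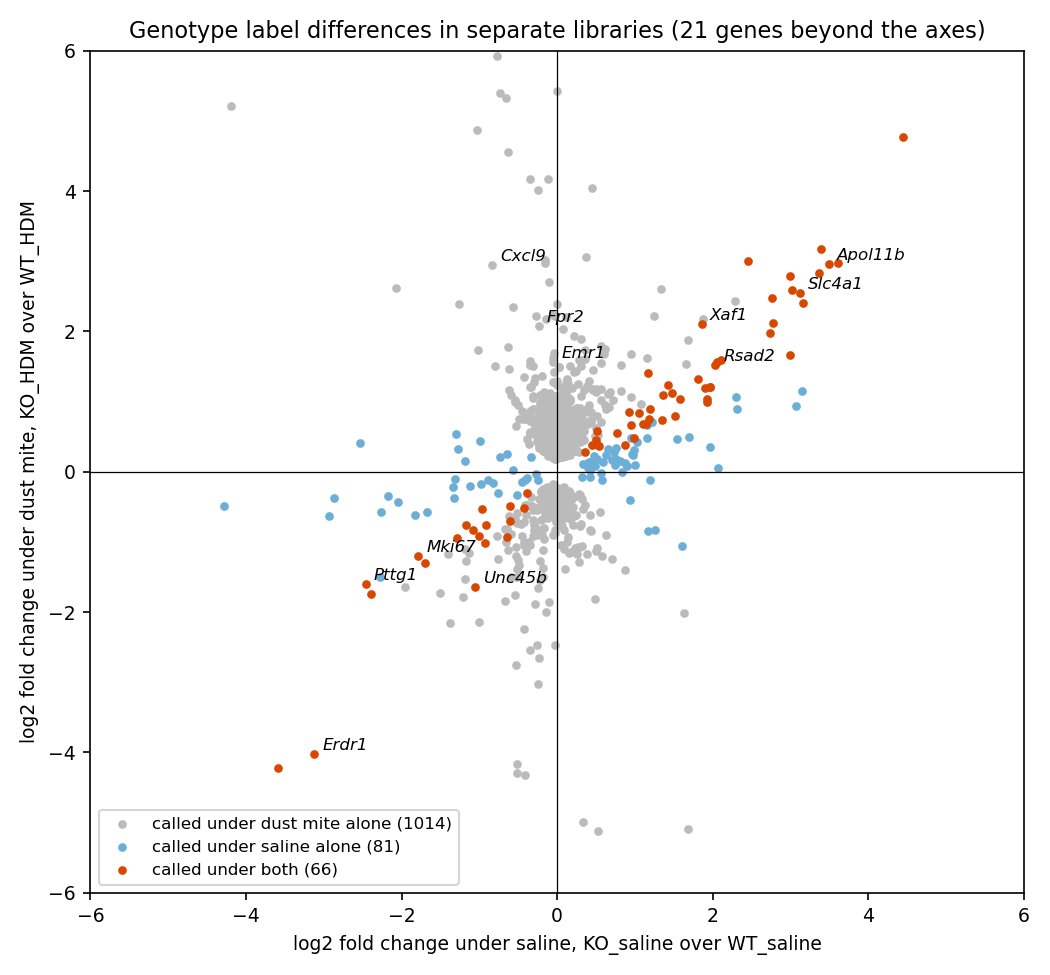
Log2 fold change of KO_saline over WT_saline (x) against KO_HDM over WT_HDM (y) for genes called in either comparison, which share no library; 21 genes lie beyond the axes. The 66 genes called in both (orange) lie in the lower left and upper right, and most of the 1014 called under dust mite but not saline (grey) lie near 0 on the x axis.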

How the data were processed

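RNA of whole lung was sequenced in strand-specific libraries, per the labels' protocols, which also mention removal of ribosomal RNA. The authors deposited expected counts per gene, not normalized, made with Bowtie2 2.1.0 and RSEM 1.2.15 per the submitters' processing notes. The build named there is hg38, although the symbols are those of mouse, so the build used is uncertain. RSEM divides reads among near-identical genes. Expected counts were rounded, filtered with filterByExpr (16193 of 24054 genes kept), scaled by TMM and modelled with edgeR 4.0.16 under R 4.3.3: 4 group means over all 20 libraries, 16 residual degrees of freedom, robust quasi-likelihood F test, Benjamini-Hochberg adjustment over all tested genes and a threshold of 0.05. All 20 libraries sharing 1 estimate of spread means that saline libraries can change calls under dust mite. Alox15 was also tested by exact permutation of log2 CPM (prior count 2).

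Named genes are Alox15, the 15 largest rises and 15 largest falls among called genes with mean log2 CPM of 1 or more and no overlap (without predicted genes or immunoglobulin and T cell receptor segments), as many as 4 called members per list by adjusted p, and Xist, Ddx3y and Eif2s3y as checks of sex, which showed Xist in all libraries. Other list members and Clec4f, Mmp9, Arrb2 and Dpep1 are named with values from the same fit. The comparison, the 45 lists and the rules were chosen with earlier results of these data known. Lists are described by counts and medians with no set test. Chromosomes come from RefSeq genes of GRCm38.p6, which placed 99.5% of tested genes. Alternatives were RLE and upper quartile scaling, other filters, DESeq2 1.42.0, limma 3.58.1 voom, the 10 libraries alone, a replicate block, fits without libraries rich in Adipoq (50 CPM or more) or with an adipose covariate, without Rn45s or chromosome 11, stricter limits, and each library left out once. Chosen after seeing the data were the Rn45s covariate, leaving out WT_HDM 2, WT_HDM 4 and KO_HDM 5, and leaving out other-tissue genes. At these depths 1 CPM is over 10 counts; floors cover counting error only. Results for some items are not reported here. Scripts were tested on simulated counts.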

Additional observations from a re-analysis of the deposited data

Results flagged for a closer look

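Some genes had 1 library of a group far from the other 4; chance alone gives such a gap in about 1 in 20 groups. In the skeletal muscle genes this was WT_HDM 2 each time. Atp2a1 was at 1080 CPM there and at 1.24 to 2.07 in the other WT_HDM libraries. Myh1, a fast myosin heavy chain, was at 1340 CPM against 0 to 0.155, Acta1 at 1310 against 0.233 to 0.569, Tnnt3 at 546 against 0.371 to 3.31 and Mylpf at 177 against 0.310 to 0.644. In the liver genes it was KO_HDM 1, which had the lowest level of Alb (20.1 CPM against 53.9 to 76.4), Apob (13.3 against 27.4 to 33.1) and Cps1 (2.08 against 6.82 to 8.51).

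KO_HDM 5 was low for Trim10 (2.96 CPM against 5.24 to 5.45), Dpep2 (11.1 against 15.2 to 16.8) and the Schlafen gene Slfn14 (0.862 against 2.00 to 2.24). Slfn9 was high in KO_HDM 4 (51.2 CPM against 31.9 to 35.1) and Xcr1 in KO_HDM 2 (29.5 against 21.1 to 21.9). In WT_HDM, replicate 5 was low for Ccl24 (0.693 CPM against 9.57 to 17.5) and Edem1 (175 against 238 to 252).

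Other genes differed in genotype effect between dust mite and saline by the interaction test of edgeR, given here as the log2 difference of the 2 effects. It was positive for the phagocyte genes Fpr2 (2.31), Emr1 (1.61), Cd200r4 (1.58) and C3ar1 (1.33), for the interferon-induced genes Gbp6 (1.39) and Cd274 (1.01), for Hhip (1.16), Pttg1 (0.86) and Edem1 (0.64), for the liver genes Cps1 (12.03) and Alb (8.66), and for Fabp1 (2.68). Unlike Alb, Fabp1 was present under saline and low in WT_HDM. Its means were 2.78 CPM in WT_saline, 3.61 in KO_saline, 0.379 in WT_HDM and 3.26 in KO_HDM. The fitted values of Alb and Cps1 depend on the prior count of the fit and are no bounds. The log2 difference of the effects was negative for Lgals2 (-2.28), Myrip (-1.56), Clec1b (-1.43), Rspo1 (-1.12), Fam57b (-1.04), Mmp28 (-0.99) and Nos3 (-0.84).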

How the results depend on the processing

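For the counts over all genes, the scalings, filters and tools not named here stayed within 1.5 times of the value reported, while counts of some small lists moved by more. The 1080 calls became 398 at an adjusted p under 0.01 and 252 with a 2-fold minimum; the 775 higher calls became 328 and 168, and 512 without WT_HDM 2, WT_HDM 4 and KO_HDM 5; the 305 lower calls became 70 and 84, 469 with DESeq2 and 525 with an adipose covariate. Upper quartile scaling gave 658 higher and 406 lower calls. The 147 saline calls became 91 and 80 at these stricter limits, 327 with DESeq2 and 97 without chromosome 11, and the 200 interaction calls 32 and 85, 608 with DESeq2, 103 without the libraries rich in Adipoq and 477 with the adipose covariate. Leaving out 1 library gave 576 to 1396 calls (420 to 976 higher, 156 to 459 lower), 102 to 180 saline calls and 79 to 260 interaction calls. The Alox15 difference of 1.27 was 1.15 (adjusted p = 0.107) in edgeR, 1.14 (0.0523) in DESeq2, 1.25 (0.0580) with a replicate block, 1.33 (0.0541) with the adipose covariate and 1.36 (0.198) with the Rn45s covariate, and 0.99 to 1.47 on leaving out 1 library, by exact permutation. The fit with the Rn45s covariate turned Acta1 to 1.74, and Myh1 was 0.59 without the libraries rich in Adipoq, 0.58 without the 3 of them given dust mite and -11.91 to 0.18 on leaving out 1 library, the highest without WT_HDM replicate 2.

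Replicate numbers are shared between the groups. Same-numbered WT_HDM and KO_HDM libraries correlated at 0.106, -0.173, -0.0792, -0.426 and -0.429 in their deviations, and 0 of 5 correlated best with their own number. These numbers come from the sample titles and mostly differ from the numbers in the submitters' library names. Whether WT_HDM and KO_HDM libraries shared a batch was not tested. With the title number as a replicate block 1047 genes were called, 736 higher and 311 lower, 160 under saline and 246 by the interaction. Depth limits the genes at or under 1 CPM, among them Ifng, Il4 and Il13.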
